A study of Mus musculus with 4 samples.

Results

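A set of 37 genes was close to silent in untreated mouse colonic organoids and was read in both libraries given sodium butyrate. The members were selected on the measured counts. Each had at most 10 counts in both untreated libraries and at least 20 counts in both butyrate libraries, and names turned into calendar dates or listed more than 1 time were left out. Of 36144 gene names in the deposited table, 22082 had at most 10 counts in both untreated libraries, and 37 of these (0.168%) met the rule. With the treatments exchanged, 12 of 21658 genes with at most 10 counts in both butyrate libraries (0.0554%) had at least 20 in both untreated libraries. Because the rule used all 4 libraries, the higher counts with butyrate are a description of how the genes were chosen and were not tested.

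RNA was sequenced in bulk from colonoids, organoid cultures grown from the crypts of a male mouse aged 24 weeks and used at passage 3. The sample labels give the mouse as wild type, whereas the study's legend gives a *Hes1*-GFP reporter mouse, and every library came from the same animal. The cultures were left untreated or received 2 mM sodium butyrate and were taken on day 2 (48 h) or day 3 (72 h), with 1 library per condition and 4 in all, so no difference below has a replicate check. All cultures shared a growth medium with EGF, Noggin, R-spondin, the GSK3 inhibitor CHIR99021 and the ROCK inhibitor Y-27632. Libraries held 20790225 to 24207840 counts, and 3 counts, the floor used for a gene at 0, corresponded to 0.124 to 0.144 counts per 1000000 (CPM). All 14 epithelial markers examined had more than 10 counts in at least 1 library. Their summed scaled counts were 278966 and 353718 untreated and 297678 and 258580 with butyrate (48 h, then 72 h). The sum was thus 1.07 and 0.731 times the untreated level. *Muc2*, the largest part of the sum in every library, was at 0.712 and 0.548 times its untreated level. *Car1* was at 2.20 and 0.544 times. At 72 h the other markers ran from 0.597 for *Krt20* to 1.11 for *Krt18*, with *Epcam* at 0.905. In bulk RNA, fewer cells of a type and less RNA per cell cannot be told apart.

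Butyrate is a short-chain fatty acid that gut bacteria make from dietary fibre, and it is a main fuel of colonocytes. It also inhibits histone deacetylases, the enzymes that remove acetyl groups from histones, and inhibitors of this class are known to raise transcripts from genes that a tissue normally keeps low. The 37 genes included RNA-binding proteins of the embryo, genes of antigen presentation, lipid enzymes, genes best known from nerve cells, and genes of cilia and matrix.

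The promoter window of a gene, here the 250 bases before to 50 bases after its start, was found for 27 of the 37 genes in the RefSeq table for GRCm38.p6. *Arhgef25*, *Fbxo16*, *Fut10*, *Gm47893*, *Igf2bp1*, *Nat8l*, *Ndufa4l2*, *Nlrc5*, *Rhpn1* and *Sh3tc2* were not matched. The 5 windows below show the range of base composition among the genes, from rich in CpG to free of it, and the 2 members with an AP-1 motif. They run 5′ to 3′ on the strand of the gene, with capitals at any match, on either strand, to the TATA box TATAAA, the GC box GGGCGG, the CCAAT box, the AP-1 motif TGACTCA, the cyclic AMP response element TGACGTCA or the E-box CACGTG. Each window counts a motif at most 1 time, and no matches overlapped. *Igf2bp3* lies on the minus strand with its window at chr6:49214905-49215204, *Trim71* on the minus strand at chr9:114564320-114564619, *H2-Eb1* on the plus strand at chr17:34305617-34305916, *Chit1* on the plus strand at chr1:134110992-134111291 and *Plb1* on the plus strand at chr5:32238834-32239133.
Igf2bp3: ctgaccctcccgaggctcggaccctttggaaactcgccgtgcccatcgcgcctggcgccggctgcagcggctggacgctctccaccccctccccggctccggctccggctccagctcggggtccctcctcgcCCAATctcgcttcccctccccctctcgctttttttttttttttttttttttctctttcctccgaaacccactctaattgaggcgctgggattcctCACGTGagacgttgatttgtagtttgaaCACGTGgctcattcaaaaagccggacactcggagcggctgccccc
Trim71: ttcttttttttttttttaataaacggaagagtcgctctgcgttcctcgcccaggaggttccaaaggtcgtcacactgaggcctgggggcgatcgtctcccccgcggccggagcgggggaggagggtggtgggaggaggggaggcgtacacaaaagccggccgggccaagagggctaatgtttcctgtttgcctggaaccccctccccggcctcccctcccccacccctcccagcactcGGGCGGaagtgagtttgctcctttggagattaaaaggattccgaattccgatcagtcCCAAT
H2-Eb1: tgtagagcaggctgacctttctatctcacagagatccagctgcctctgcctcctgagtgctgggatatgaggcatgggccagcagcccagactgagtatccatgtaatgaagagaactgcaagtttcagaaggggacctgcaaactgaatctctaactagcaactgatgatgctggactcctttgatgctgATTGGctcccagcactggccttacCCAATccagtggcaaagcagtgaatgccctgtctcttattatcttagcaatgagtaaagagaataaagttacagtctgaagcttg
Chit1: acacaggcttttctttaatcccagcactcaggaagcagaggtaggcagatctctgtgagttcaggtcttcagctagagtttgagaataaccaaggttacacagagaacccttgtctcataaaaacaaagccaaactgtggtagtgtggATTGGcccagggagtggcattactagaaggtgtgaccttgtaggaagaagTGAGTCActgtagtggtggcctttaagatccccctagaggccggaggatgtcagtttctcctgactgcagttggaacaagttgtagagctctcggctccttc
Plb1: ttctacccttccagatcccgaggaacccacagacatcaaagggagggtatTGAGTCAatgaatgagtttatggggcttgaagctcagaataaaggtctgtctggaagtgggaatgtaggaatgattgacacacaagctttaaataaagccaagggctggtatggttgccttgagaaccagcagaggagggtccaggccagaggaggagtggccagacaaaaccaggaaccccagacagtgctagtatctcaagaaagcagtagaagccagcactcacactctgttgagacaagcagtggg

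The *Igf2bp3* window held 25 CpG dinucleotides and the *Trim71* window 19, against 2 for *Chit1*, 1 for *Plb1* and 0 for *H2-Eb1*. The ratio of observed to expected CpG, which corrects for base composition, was 0.982 for *Igf2bp3* and 0.720 for *Trim71*, and 0.116 for *Chit1*. Sequence was not used by the rule. Over the 27 genes the median ratio was 0.462 (interquartile range 0.219 to 0.693). This lay between the 0.213 of 6361 other near-silent genes and the 0.753 of 10632 genes over the count filter, which asks for more than 10 counts in 2 or more libraries. A ratio over 0.6 was found in 10 of 27 genes (37.0%), in 14.7% of the other near-silent genes and in 69.7% of the genes over the count filter. Near-silent genes that were not members but had 5 to 20 counts summed over both untreated libraries had a median of 0.325, with 25.9% over 0.6. The members ran from 0 to 0.982, a range that both comparison sets also cover, as the plot of promoter CpG content shows.

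**Figure D1:**
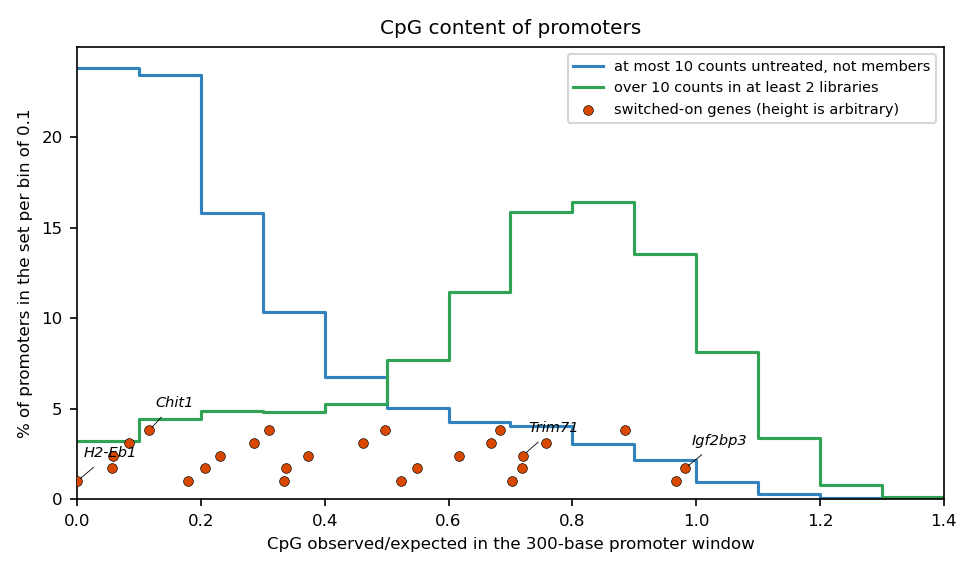
Ratio of observed to expected CpG (horizontal axis, no unit) in the 300-base promoter window, as the percentage of promoters per bin of 0.1 for near-silent genes that are not members (blue line) and for genes over the count filter (green line). Each orange point is 1 of the 27 matched members at an arbitrary height, and the points run from 0 for *H2-Eb1* to 0.982 for *Igf2bp3*.

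The GC box GGGCGG was present in 12 of 27 windows (44.4%), close to the 47.0% of all 17068 protein-coding promoters and above the 20.5% of other near-silent genes and the 32.0% of those with 5 to 20 summed untreated counts. CCAAT was also found in 12 (44.4%, against 39.0% of all promoters), including 2 matches 59 and 35 bases before the start of *H2-Eb1*. TATAAA was found in 3 (11.1%, against 13.2%), which were *Il33*, *Pltp* and *Slc30a3*. CACGTG was found in 3 (11.1%, against 8.0%), with 2 matches in *Igf2bp3*. The AP-1 motif TGACTCA was present in *Chit1* and *Plb1* alone (7.41%, against 4.61%), and with the start furthest downstream in 1 window (3.70%). The windows of *Plb1*, *Dnajc6*, *Mab21l3*, *Cercam* and *H2afy2* lie wholly inside their GENCODE genes, and they were kept in the medians and shares given here. TGACGTCA was present in 0 (against 2.37%). These are matches of letters, searched on both strands, and with 27 windows a share moves by several percentage points for each gene.

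Summed over the 37 genes, the 48 h libraries had 203 counts untreated and 2188 with butyrate, and the 72 h libraries had 221 and 1371. As shares of all counts the untreated sums were 9.41 and 9.37 CPM, and the butyrate sums 90.4 and 65.9 CPM. The median gene had 6 counts in each untreated library, and with butyrate it had 48 (48 h) and 31 (72 h). On the log2 scale of counts divided by size factors plus 1, the median difference between butyrate and untreated was 2.90 at 48 h (range 0.90 to 5.82) and 2.54 at 72 h (range 1.06 to 5.15), while the medians of all genes over the count filter were -0.01 and 0.00. The 95% counting interval of the ratio lay above 1 in 36 of 37 genes at each time, which the rule largely fixes. The exceptions were *Kif7* at 48 h and *Klk10* at 72 h.

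**Figure D2:**
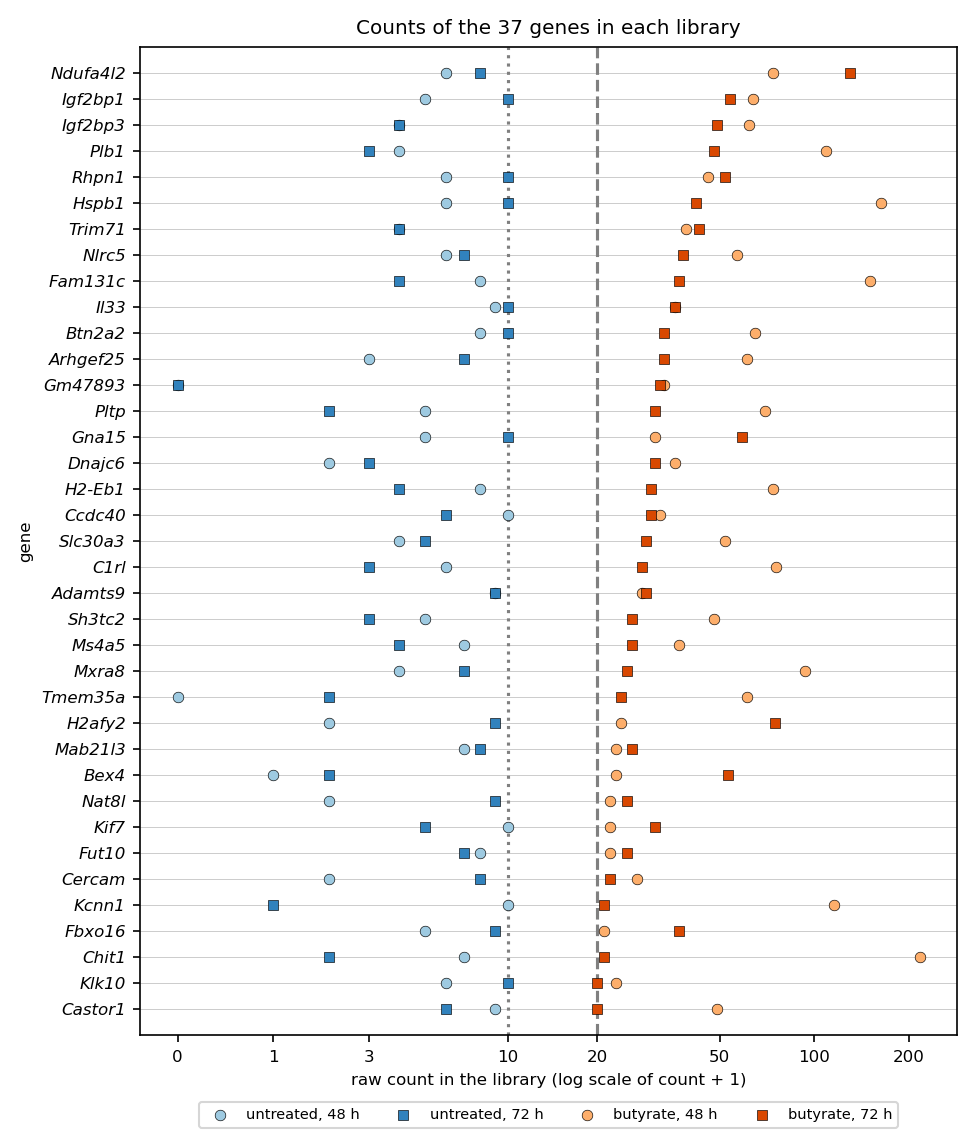
Raw counts (horizontal axis, log scale of count + 1) of each of the 37 genes in the 4 libraries, with circles for 48 h, squares for 72 h, blue for untreated and orange for butyrate. The dotted and dashed lines mark the 10 and 20 counts of the rule, so the gap between blue and orange points is set by the selection, whereas the distance of the orange points from the dashed line is not.

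The genes stayed low after butyrate when compared per length of transcript. At 48 h their median was 0.0654 CPM per kilobase without butyrate and 0.60 with it, and at 72 h these medians were 0.0743 and 0.448. Genes over the count filter had medians of 5.28 and 5.2 CPM per kilobase in the same butyrate libraries. Only *Hspb1* passed that median at 48 h, with 6.53 CPM per kilobase. At 72 h *Ndufa4l2* passed it with 5.71, as did the short pseudogene *Gm47893* with 5.79. The other 34 genes were below it in every library.

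Close to the edge of the rule were *Klk10* and *Castor1*, each with 20 counts with butyrate at 72 h, and *Kcnn1*, with 21. Just outside stood *Tmem59l* with 1 and 1 counts untreated and 37 and 19 with butyrate, *Sp9* with 4 and 4 against 27 and 19, *Gm14760* with 0 and 6 against 25 and 19, *Adssl1* with 4 and 4 against 69 and 18, and *Fxyd6* with 5 and 10 against 18 and 37. The filamin *Flnc*, with 7 and 11 counts untreated and 77 and 60 with butyrate, missed the rule by 1 count without butyrate. The rule at 48 h alone was met by 311 of 22602 genes (1.38%) and at 72 h alone by 128 of 22366 (0.572%). The 37 genes were therefore 11.9% of the former list and 28.9% of the latter.

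The RNA-binding genes *Igf2bp1*, *Igf2bp3* and *Trim71* are expressed in the embryo, are low in most adult tissues, and act on or are targets of the let-7 microRNA pathway. *Igf2bp3* (chr6:49085223-49214957), whose protein binds and stabilises mRNAs, had 4 and 4 counts untreated at 48 h and 72 h and 62 and 49 with butyrate. The ratios were 13.8 (95% interval 5.11 to 52.1) and 13.4 (4.91 to 51.1), and the promoter shown above was the richest in CpG of the 5 printed. *Igf2bp1* (chr11:95957163-96005940), its close relative, had 5 and 10 counts untreated and 64 and 54 with butyrate, a ratio of 11.4 (4.62 to 36.2) at 48 h and of 5.91 (2.98 to 13.0) at 72 h. *Trim71* (chr9:114507133-114564369), a ubiquitin ligase and mRNA repressor of stem cells known as LIN41, had 4 and 4 counts untreated and 39 and 43 with butyrate, 8.65-fold (3.12 to 33.3) and 11.8-fold (4.27 to 45.1) higher. In all 3 genes both butyrate libraries were near the same level. Their butyrate 72 h to 48 h ratios were 0.941 for *Igf2bp3*, 1.00 for *Igf2bp1* and 1.31 for *Trim71*, each with an interval holding 1.

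The third family member *Igf2bp2* was already at 1943 and 2205 counts untreated and at 2742 and 2302 with butyrate, 1.25-fold and 1.14-fold higher. In a list of 8 oncofetal and let-7 genes that was chosen after the values were seen, 5 were near-silent and 3 of these were members, against 0.168% of all near-silent genes. The 3 are there because they prompted the list, so their number is no result. The remaining pair were *Lin28a*, which blocks let-7 maturation, with 0 and 0 counts untreated and 19 and 2 with butyrate, and *Lin28b*, with 1 and 1 against 4 and 0. *Lin28a* was thus at least 5.62-fold higher at 48 h against the floor of 3 counts, and at 72 h both libraries were below that floor. *Hmga2*, a let-7 target, had 1516 and 1356 counts untreated and 1944 and 1479 with butyrate.

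*H2afy2* (chr10:61738665-61784147) encodes the histone variant macroH2A2, which is placed in repressed chromatin. It had 2 and 9 counts untreated and 24 and 75 with butyrate, and it was 1 of the 5 genes that were at least 2-fold higher at 72 h than at 48 h with butyrate. Relative to untreated, it was 10.6-fold (2.64 to 93.0) higher at the earlier time and 9.12-fold (4.55 to 20.7) at the later. The paralogue *H2afy*, for macroH2A1, was at 4470 and 4746 counts untreated and 1.12-fold and 1.17-fold higher with butyrate. Of the 31-base sequences in *H2afy2* transcripts, 25.3% were shared with other genes, among them *Aifm2*, which overlaps on the opposite strand and had 298, 335, 249 and 206 counts in the order untreated and butyrate at 48 h, then at 72 h.

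Antigen presentation was represented by *H2-Eb1*, *Nlrc5* and *Btn2a2*. *H2-Eb1* (chr17:34305867-34316674), the beta chain of the class II molecule I-E, had 8 and 4 counts untreated and 74 and 30 with butyrate. The ratios were 8.21 (3.96 to 19.7) and 8.20 (2.89 to 32.1), and the butyrate count was lower at 72 h than at 48 h (0.483, 0.305 to 0.747). In the class II list of 10 genes, 5 passed the count filter and 4 of these were at least 2-fold higher with butyrate at both times, against 2.64% of all 13960 genes over the filter. *H2-Eb1* was among the 4 by selection and passed the filter through its butyrate libraries alone. The other 3, of 4 passing genes that were not members, were the invariant chain *Cd74*, the I-A beta chain *H2-Ab1* and *H2-DMb1*, a chain of the peptide loader H2-DM. Of these, *H2-DMb1* needed a butyrate library to pass the filter. *Cd74*, *H2-Ab1* and *H2-DMa* had more than 10 counts in both untreated libraries. Of these genes *Cd74* and *H2-Ab1* were higher in this way, against 1.52% of all such genes, and *H2-DMa* was not.

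*Cd74* had 149 and 73 counts untreated and 1112 and 454 with butyrate, 6.62-fold (5.58 to 7.91) and 6.80-fold (5.30 to 8.83) higher. *H2-Ab1* had 86 and 53 against 592 and 288, and *H2-DMb1* had 18 and 4 against 49 and 45. The fifth gene, *H2-DMa*, had 46 and 79 against 221 and 88. *H2-Aa*, which encodes the partner chain of *H2-Ab1*, had 6 and 5 counts untreated and 5 and 2 with butyrate. *Ciita*, the transactivator of class II genes, had 7 and 1 counts untreated and 15 and 9 with butyrate, with ratios of 1.90 (0.730 to 5.51) and 9.84 (1.36 to 431), and did not meet the rule.

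*Nlrc5* (chr8:94434356-94527272), the corresponding transactivator of class I genes, had 6 and 7 counts untreated and 57 and 38 with butyrate, 8.43-fold (3.64 to 23.9) and 5.94-fold (2.62 to 15.8) higher. Among 10 class I genes, a list chosen after the values were seen, the immunoproteasome subunit *Psmb8* was at least 2-fold higher at both times, as was *Nlrc5* by selection, against 2.64% of all genes over the filter. *Psmb8* had 43 and 44 counts untreated and 508 and 135 with butyrate. The peptide transporter *Tap1* was 1.85-fold (1.49 to 2.31) and 1.59-fold (1.26 to 2.01) higher. The class I heavy chain *H2-K1*, at 9662 and 9821 counts untreated, was 1.39-fold and 1.04-fold higher. *Btn2a2* (chr13:23477676-23488857), a butyrophilin that restrains T cells, had 8 and 10 counts untreated and 65 and 33 with butyrate.

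Other genes of defence and inflammation followed the same rule at different heights. *Chit1* (chr1:134111242-134151540), the chitin-cleaving enzyme chitotriosidase, had 7 and 2 counts untreated and 217 and 21 with butyrate, the highest count of the set at 48 h and 1 above the minimum of the rule at 72 h. These are ratios of 27.5 (13.1 to 69.2) and 11.5 (2.81 to 101). *C1rl*, a serine protease related to complement C1r, had 6 and 3 against 76 and 28, and its relative *C1ra* had 23 and 24 against 69 and 31. *Il33* (chr19:29925114-29960718), an alarmin cytokine kept in the nucleus of barrier cells, had 9 and 10 counts untreated and 36 in each butyrate library, 3.55-fold (1.68 to 8.38) and 3.94-fold (1.91 to 8.90) higher. *Ms4a5*, of the family that includes the B cell antigen CD20, had 7 and 4 against 37 and 26.

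Immune cells express several of these genes, so 12 immune markers were summed. The sums of scaled counts were 739 and 806 untreated and 1435 and 839 with butyrate at 48 h and 72 h. *Tyrobp* and *Adgre1* had 0 counts in every library, and 7 of the 12 had at most 10 in every library. *Ptprc*, the pan-leukocyte CD45, had 5 and 15 counts untreated and 6 and 6 with butyrate. The macrophage receptor *Csf1r* had 1 and 0 counts untreated and 2 and 16 with butyrate, at least 5.83-fold higher at 72 h against the floor. Most of the sum came from *Cd68*, with 128 and 172 counts untreated and 1309 and 420 with butyrate, and *Cd14*, with 534 and 579 against 221 and 287. *Cd68*, and *Csf1r* at 72 h, were therefore higher together with the members and *Cd14* lower, and their part in these results was not tested.

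Of the enzymes of lipid and intermediary metabolism, *Ndufa4l2* (chr10:127514967-127517154) reached the highest count at 72 h. It encodes a mitochondrial protein known from the response to low oxygen. It had 6 and 8 counts untreated and 74 and 130 with butyrate, 10.9-fold (4.8 to 30.8) and 17.8-fold (8.76 to 42.0) higher. *Ndufa4*, its counterpart in cytochrome c oxidase, had 1964 and 2185 against 2586 and 1523. *Plb1* (chr5:32232708-32366520), a phospholipase of the intestinal brush border, had 4 and 3 counts untreated and 109 and 48 with butyrate, with ratios of 24.2 (9.18 to 90.3) and 17.5 (5.64 to 87.8). Its promoter window, printed above, held 1 CpG and lies inside the GENCODE gene. A link between CpG content and the ratio was not tested.

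*Pltp* (chr2:164839518-164857711), which moves phospholipids between lipoproteins, had 5 and 2 counts untreated and 70 and 31 with butyrate. It overlaps *Ctsa* on the opposite strand, which had 3898 and 3790 against 5759 and 3669, and shared 13.9% of its 31-base sequences with it. *Castor1*, the arginine sensor of the mTORC1 pathway, had 9 and 6 against 49 and 20, while its paralogue *Castor2* had 386 and 410 against 497 and 408. *Nat8l*, the enzyme of N-acetylaspartate synthesis, had 2 and 9 against 22 and 25. *Fut10*, of the fucosyltransferase family, had 8 and 7 against 22 and 25. The last 2 were thus among the lowest of the set with butyrate.

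Several members are best known from nerve or glia. *Tmem35a* (chrX:134295225-134305969), a chaperone of nicotinic acetylcholine receptors, had 0 and 2 counts untreated and 61 and 24 with butyrate. It was at least 18-fold higher at 48 h against the floor of 3 counts per library, and 13.1-fold (3.26 to 115) at 72 h. *Kcnn1* (chr8:70842049-70863258), the small-conductance calcium-activated potassium channel SK1, had 10 and 1 against 116 and 21. It was the only gene with a count above 0 whose untreated libraries differed beyond their counting interval (72 h to 48 h ratio 0.0966, 0.0022 to 0.679). Its intermediate-conductance relative *Kcnn4*, the epithelial form, had 855 and 843 counts untreated and 1086 and 771 with butyrate.

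*Slc30a3*, the transporter that loads zinc into synaptic vesicles, had 4 and 5 counts untreated and 52 and 29 with butyrate. Its relative *Slc30a2* had 49 and 15 against 221 and 138, a ratio of 4.0 (2.93 to 5.57) and 10.1 (5.89 to 18.5). *Dnajc6*, the neuronal auxilin that uncoats clathrin vesicles, had 2 and 3 against 36 and 31, while *Gak*, the widely expressed auxilin, had 6087 and 7030 against 6407 and 6132. *Sh3tc2*, a protein of Schwann cell myelination, had 5 and 3 counts untreated and 48 and 26 with butyrate.

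*Bex4* (chrX:136138996-136140443), of the brain-expressed X-linked family, had 1 and 2 counts untreated and 23 and 53 with butyrate, 20.4-fold (3.31 to 841) and 29.0-fold (7.64 to 246) higher. *Bex1* had 104 and 84 counts untreated and 608 and 599 with butyrate, 5.19-fold (4.21 to 6.45) and 7.80-fold (6.20 to 9.92) higher. *Bex4* shared 59.9% of its 31-base sequences with other genes, including 27.5% with *Bex1*, so the pair may share reads. *Bex3* was 1.98-fold and 1.31-fold higher, and *Bex2* had 82 and 93 counts untreated and 133 and 47 with butyrate. *Bex1*, *Bex4* and *Crip2* were the 3 genes of 21 passing the filter in a list of common readouts of histone deacetylase inhibition that were at least 2-fold higher at both times, against 2.64% of all genes over the filter, and *Bex4* was there by selection. The medians of that list were 0.52 at 48 h and -0.23 at 72 h on the log2 scale.

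In a list of 50 neuronal genes, 34 passed the count filter, 14 were near-silent, and 0 were members or at least 2-fold higher with butyrate at both times, against 2.64% of all genes over the filter, a share at which 34 genes hold few or 0. Their median log2 difference was -0.16 at 48 h and -0.21 at 72 h. Of 8 markers of enteric neurons, the summed scaled counts were 430 and 527 untreated and 321 and 285 with butyrate. The marker with the highest count in every library was *Ret*, with 217 and 285 counts untreated and 137 and 88 with butyrate, and the markers went both ways. *Snap25*, for example, had 71 and 110 against 112 and 61. Their part in the neural members was not tested.

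The signalling members act around heterotrimeric G proteins and small GTPases. *Gna15* (chr10:81502306-81524225), the alpha subunit G15 that couples many receptors to phospholipase C, had 5 and 10 counts untreated and 31 and 59 with butyrate, 5.50-fold (2.12 to 18.1) and 6.45-fold (3.27 to 14.2) higher. The other 3 subunits of the class differed from it. *Gna14* had 464 and 517 counts untreated and 171 and 298 with butyrate, 0.327 and 0.630 times the untreated level. *Gnaq* was at 0.734 and 0.969 times and *Gna11* at 1.10 and 0.714 times. *Arhgef25*, an exchange factor for RhoA, had 3 and 7 against 61 and 33, and *Rhpn1*, a scaffold that binds small GTPases, had 6 and 10 against 46 and 52. *Rhpn2*, its expressed paralogue, had 2913 and 4072 against 2969 and 2860.

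Among genes of cilia, *Ccdc40*, which positions the inner dynein arms of motile cilia, had 10 and 6 counts untreated and 32 and 30 with butyrate. Its partner *Ccdc39* had 8 and 4 against 16 and 9. *Foxj1*, the master regulator of motile cilia, had 7 and 9 counts untreated and 2 and 10 with butyrate. In a list of 10 motile cilia genes, chosen after the values were seen, 7 passed the filter. *Dnaaf3* and, by selection, *Ccdc40* were at least 2-fold higher at both times (2.64% of all genes over the filter), and the dynein *Dnah5*, with 22 and 19 counts untreated and 2 and 0 with butyrate, was at least 2-fold lower (1.02%). The median log2 difference of the list was 1.14 at 48 h and -0.36 at 72 h. *Kif7*, a kinesin of the primary cilium that regulates Hedgehog signalling, had 10 and 5 against 22 and 31, and its ratio at 48 h was 1.95 (0.887 to 4.62). It overlaps *Ticrr* on the opposite strand, which had 874 and 1012 against 747 and 1017. In 9 Hedgehog genes, chosen after the values were seen, *Gli1* had 0 and 0 counts untreated and 16 and 0 with butyrate, and the list, of which 5 genes passed the filter with *Kif7* among them, was too short to set its 0 genes at least 2-fold higher at both times against the 2.64% of all genes.

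Matrix and surface genes included *Mxra8*, an adhesion protein and alphavirus receptor, with 4 and 7 counts untreated and 94 and 25 with butyrate. *Mxra7*, also named for matrix remodelling, had 16 and 16 against 197 and 38. *Adamts9*, a matrix metalloprotease, had 9 and 9 against 28 and 29, and *Cercam*, of the collagen galactosyltransferase family, had 2 and 8 against 27 and 22. Fibroblasts are a known source of such transcripts. Of 8 fibroblast markers the summed scaled counts were 1232 and 1081 untreated and 1691 and 2221 with butyrate, most of it *Fbln1*, with 1068 and 942 counts untreated and 1720 and 1893 with butyrate. The collagen genes were at or near 0, with *Col3a1* at 0 in every library and *Col1a1* at 5 and 6 counts untreated and 12 and 0 with butyrate.

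The other marker lists were summed in the same way. Of 6 endothelial markers the sums were 76.7 and 83.9 untreated and 127 and 103 with butyrate, and the markers went both ways. *Vwf* was 1.86-fold (1.28 to 2.74) and 2.51-fold (1.57 to 4.11) higher. *Kdr* had 8 and 8 counts untreated and 1 and 3 with butyrate. *Pecam1* was at 1.64 (0.928 to 2.98) and 0.559 (0.323 to 0.944) times the untreated level. *Cdh5* was at 0 or 1 counts in every library. All 6 smooth muscle markers had at most 10 counts in every library. Of 6 markers of enteric glia the sums were 4587 and 5499 untreated and 3038 and 4524 with butyrate, nearly all of it *Erbb3*, which epithelium also expresses, and *Sox10* and *S100b* had 0 counts in every library. The part of the endothelial markers in these results was not tested.

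The small heat shock protein *Hspb1* (chr5:135887919-135889563), a chaperone of unfolded proteins and actin, had 6 and 10 counts untreated and 163 and 42 with butyrate, 24.1-fold (10.8 to 66.6) and 4.59-fold (2.27 to 10.3) higher. Pseudogenes hold many of its sequences, with 55.4% shared in all, and *Hsp25-ps1* had 0, 0, 0 and 10 counts in the order untreated and butyrate at 48 h, then at 72 h. The relative *Hspb8* had 3 and 3 counts untreated and 16 and 12 with butyrate, and *Hspb6* had 139 and 127 against 145 and 141. *Klk10*, a kallikrein protease of stratified epithelia, had 6 and 10 against 23 and 20, and its ratio at 72 h was 2.19 (0.977 to 5.23). The related *Klk8* had 0 and 0 counts untreated and 19 and 2 with butyrate, and *Klk1* had 827 and 846 against 660 and 445.

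In the list of 40 epidermal genes, 24 were near-silent and 0 were members, although 4 of 17 passing the filter were at least 2-fold higher at both times (2.64% of all genes over the filter). These were *Krt4*, *Krt14*, *S100a7a* and the cadherin *Cdh3*, which had 12 and 15 counts untreated and 286 and 118 with butyrate. *Krt14*, with 11 and 9 against 108 and 27, missed the rule by 1 count untreated and needed a butyrate library to pass the filter. The other 3 had more than 10 counts in both untreated libraries, where 1.52% of all genes were higher in this way. Of 45 germline genes, often silenced by DNA methylation in body tissues, 37 were near-silent and 0 were members. Of 38 muscle genes 27 were near-silent and 0 were members. At least 2-fold higher at both times were 2 of the 10 passing the filter, *Tnni1* and *Tnni3*, against 2.64% of all genes over the filter. Of 35 imprinted genes, 27 had a row of counts, 13 of these were near-silent and 0 were members. Among 15 enteroendocrine hormones and granins 0 were members. Over the 8 lists, 2 of 126 near-silent genes were members, *H2-Eb1* and *Bex4*. At the 0.168% of all near-silent genes that met the rule, lists of this size would hold few or 0 members, so the zeros are not a result about the lists.

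The remaining members were *Fbxo16*, an F-box protein, with 5 and 9 counts untreated and 21 and 37 with butyrate, and *Mab21l3*, with 7 and 8 against 23 and 26. *Fam131c* (chr4:141368220-141384175), a gene of little known function, had 8 and 4 against 151 and 37 and was among the 3 highest at 48 h, with *Chit1* and *Hspb1*. Those 3 genes made up 24.3% of the summed counts of the set with butyrate at 48 h and 7.29% at 72 h. The processed pseudogene *Gm47893* had 0 counts in both untreated libraries and 33 and 32 with butyrate, at least 9.76-fold and 11.7-fold higher against the floor. All of its 31-base sequences occur in other genes, 79.2% of them in *Fut8*, which had 3077 and 3650 counts untreated and 2804 and 2869 with butyrate, so the counts of *Gm47893* are uncertain. Without it, 36 genes remained, with 89.0 and 64.4 CPM in the butyrate libraries.

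The rule fixed a minimum in both butyrate libraries but not their order. With butyrate, 19 genes had the higher scaled count at 48 h and 18 at 72 h, with a median 72 h to 48 h ratio of 0.970. Among 2587 genes with counts in the range of the members, the median was 0.967. The genes nonetheless spread widely, and 9 of 37 (24.3%) were at least 2-fold lower at 72 h, against 6.96% of those 2587 genes. The lowest were *Chit1* at 0.115 (0.0699 to 0.181), *Kcnn1* at 0.216 (0.129 to 0.345), *Fam131c* at 0.292 (0.198 to 0.420), *Hspb1* at 0.307 (0.213 to 0.433) and *Mxra8* at 0.317 (0.195 to 0.496). *C1rl*, *Tmem35a*, *H2-Eb1* and *Castor1* lay between 0.439 and 0.486.

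In the other direction, 5 of 37 genes (13.5%) were at least 2-fold higher at 72 h, against 5.14% of the 2587 genes. *H2afy2* had the highest ratio, 3.72 (2.32 to 6.16), followed by *Bex4* at 2.74 (1.65 to 4.69), *Gna15* at 2.27 (1.44 to 3.62), *Fbxo16* at 2.10 (1.20 to 3.77) and *Ndufa4l2* at 2.09 (1.56 to 2.82). Intervals lay below 1 for 13 genes and above 1 for 5, as the plot of these ratios shows. In the untreated libraries, where the rule capped every gene at 10 counts, 35 of the 37 intervals of the 72 h to 48 h ratio held 1, so a shift there could hardly have been seen.

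**Figure D3:**
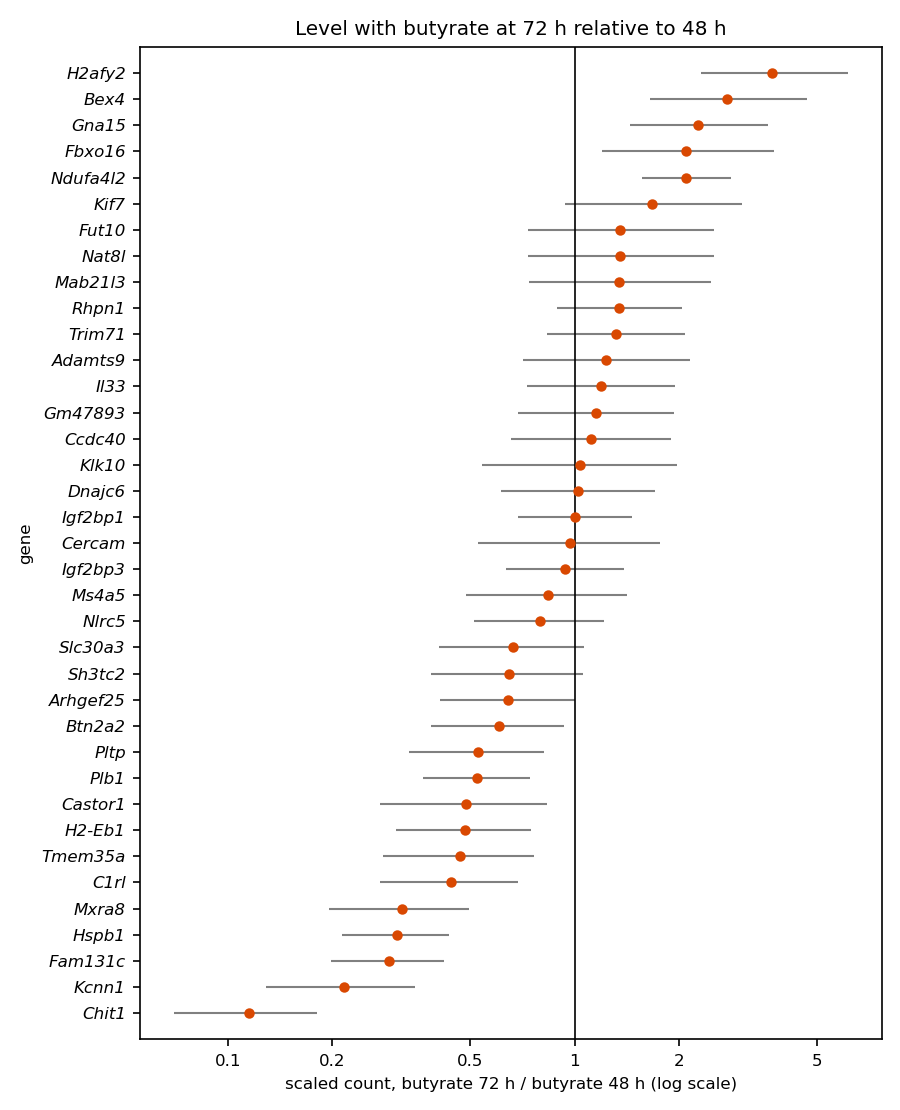
Ratio of scaled counts with butyrate at 72 h to 48 h (horizontal axis, log scale) for each of the 37 genes, with 95% counting intervals as bars and a line at 1. The genes run from *Chit1* at 0.115 to *H2afy2* at 3.72, and the embryonic RNA-binding genes *Igf2bp1* and *Igf2bp3* sit close to 1.

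Position was not used by the rule either. The genes lay on 18 chromosomes, 36 of 37 were protein-coding, and only *Arhgef25* and *Ndufa4l2*, 325 kilobases apart on chromosome 10, lay within 1 megabase of each other. The nearest gene over the count filter was taken on each side of each member, giving 74 flanking genes. At least 2-fold higher with butyrate at both times were 6 of the 74 (8.11%), against 2.64% of all genes over the filter. Of the 6, *Nxph4* and *Ccr4* passed the filter through their butyrate libraries alone. Among genes with more than 10 counts in both untreated libraries, 4 of 71 flanking genes (5.63%) were higher in this way, against 201 of 13232 genes (1.52%). At least 2-fold lower at both times were 0 of the 74, against 1.02%.

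Of these neighbours, *Ccr4*, a chemokine receptor of T cells 2217 bases from *Trim71*, had 5 and 4 counts untreated and 91 and 11 with butyrate. *Dtx3*, a ubiquitin ligase 295 bases from *Arhgef25*, had 185 and 177 against 571 and 477, and its distance is short enough that the ends of their transcripts are close. *Adora1*, the adenosine A1 receptor, lay 47683 bases from *Chit1* and had 42 and 38 against 307 and 166. Like *Chit1* it was lower at 72 h than at 48 h with butyrate, at 0.644 (0.530 to 0.780).

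*H2-Ab1* lay 36448 bases from *H2-Eb1*. *Gpnmb*, a glycoprotein of lysosome-rich cells, lay 14294 bases from *Igf2bp3* and had 15 and 51 counts untreated and 44 and 174 with butyrate, so that its untreated libraries differed as well (3.28, 1.82 to 6.29). *Nxph4*, a neurexophilin 8319 bases from *Ndufa4l2*, had 4 and 4 against 17 and 11. The intervals of *Nxph4* and *Ccr4* at 72 h held 1 (each 0.891 to 13.0).

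**Figure D4:**
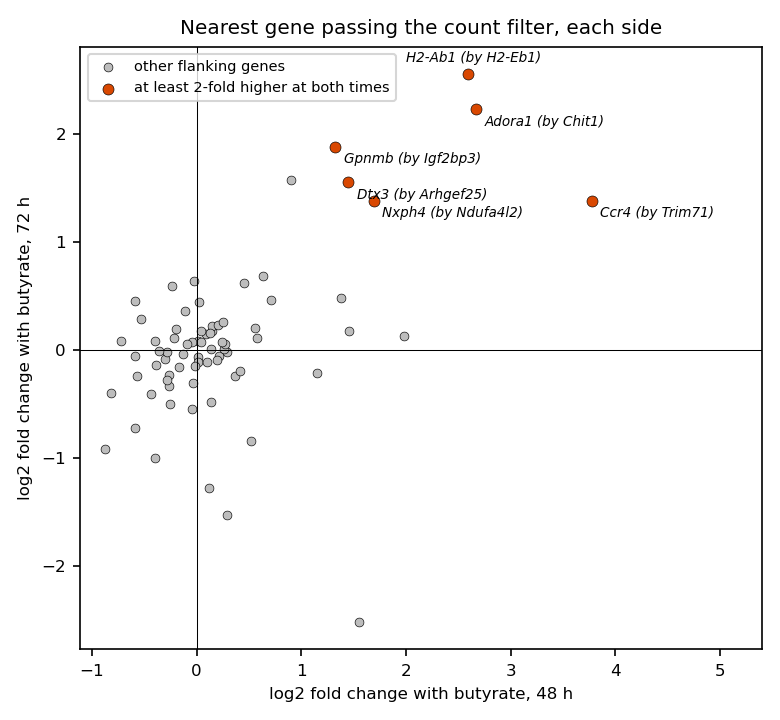
Log2 fold change with butyrate at 48 h (horizontal axis) and 72 h (vertical axis) of the 74 genes that flank the members, each the nearest gene over the count filter on 1 side. The 6 orange points are at least 2-fold higher at both times and carry the name of the member beside them, and most grey points lie near 0.

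Relatives of the members were also compared, in 28 families put together after the values were seen. Of 62 relatives, 19 were near-silent and 44 passed the filter. At least 2-fold higher at both times were *Bex1*, *Hspb8*, *Slc30a2* and *Mxra7*, or 4 of the 44, against 2.64% of all genes over the filter. *Hspb8* passed the filter through its butyrate libraries alone. At least 2-fold lower at both times were 0 of the 44, against 1.02%. The expressed relatives *Igf2bp2*, *H2afy*, *Gak*, *Rhpn2*, *Kcnn4* and *Castor2* stood between 0.768 and 1.25 times their untreated levels at both times, whereas others, such as *Gna14* and *Klk1*, lay outside this range.

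Counting by pseudoalignment assigns reads by short shared sequences. Under 5% of the 31-base sequences were shared with another gene in 27 of the 37 members, and 5% or more in 10, which were *Gm47893*, *Bex4*, *Hspb1*, *H2afy2*, *Igf2bp3*, *Kif7*, *Pltp*, *Adamts9*, *Cercam* and *Mxra8*. *Igf2bp3* shared 18.4% with *Malsu1*, which overlaps it on the opposite strand and had 244 and 262 counts untreated and 246 and 233 with butyrate. The sources used here do not say whether strand was kept, so reads from the shared stretch cannot be told apart with certainty. *Ndufa4l2* also overlaps a gene on the opposite strand, *Shmt2*, at 2884 and 2865 against 3827 and 3366, but shared only 0.446% of its 31-base sequences with any gene.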

How the data were processed

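RNA was taken from mouse colonoids, poly-A selected and sequenced, with 1 library for each of 4 conditions. The authors deposited counts per gene that were made by pseudoalignment with kallisto 0.44.0 (GRCm38.p6, per the submitters' processing notes) and summed to genes with tximport. The deposited counts are therefore rounded estimates without normalisation or gene filter. Samples were assigned to conditions from their labels. Of the 36144 names, 26 had been turned into calendar dates, 2 of which were listed 2 times, and these 26 rows, 0 of which met the rule, were left out.

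From the counts, the members were found by the rule, and size factors (0.926 to 1.10) were taken over the 13960 genes that exceeded 10 counts in 2 or more libraries (DESeq2 1.42.0). R was version 4.3.3, and edgeR 4.0.16 gave TMM factors. Ratios are quotients of scaled counts. Their 95% intervals are exact Clopper-Pearson intervals on the pair of counts and cover at most counting error. They may be too narrow where a molecule was read several times or where reads were divided between genes that share sequence. Log2 values used a pseudocount of 1. Where an untreated library had 0 counts, a lower bound was computed against 3 counts in that library. Library totals of 20790225 to 24207840 counts set the precision. The other software was scipy 1.17.1, pandas 2.3.3 and numpy 2.4.6 for computation and matplotlib 3.10.9 for plots, under Python 3.11.15. The rule and the intervals were tested on simulated data.

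Gene positions, exon lengths and shared 31-base sequences came from GENCODE M21 (GRCm38), and promoter windows from RefSeq (GRCm38.p6), with the start furthest upstream where a gene had several. No significance test was run, because 1 library per condition gives no replicates and the members were selected on the same contrast. The members and the lists were chosen with earlier results of these data known. All 37 members are named. The other genes named are those nearest the edge of the rule, relatives of members, members of the lists, overlapping or flanking genes and cell markers, and apart from the edge genes they were singled out after their values were seen. Alternatives were scaling by TMM or by total counts, a pseudocount of 5, size factors without the filter, other thresholds of the rule, and another start for promoters. Totals of the deposited table were used as depth.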

Additional observations from a re-analysis of the deposited data

Results flagged for a closer look

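No group held the 4 or more samples that a search for outlying samples needs. Among the genes named above that are not members, 5 had ratios of butyrate to untreated that lay on opposite sides of 1 at the 2 times, and neither counting interval held 1. *Bex2*, the relative of *Bex4*, was at 1.44 (1.08 to 1.92) at 48 h and 0.553 (0.381 to 0.793) at 72 h. *Gna11*, the relative of *Gna15*, was at 1.10 (1.05 to 1.15) and 0.714 (0.683 to 0.748), and *Ndufa4*, the relative of *Ndufa4l2*, at 1.17 (1.10 to 1.24) and 0.762 (0.714 to 0.814). In these 3 families the member was higher with butyrate at both times. *Ticrr*, which overlaps *Kif7* on the opposite strand, was at 0.758 (0.687 to 0.837) at 48 h and 1.10 (1.01 to 1.20) at 72 h, and the ratio of *Kif7* was also the lower at 48 h, with 1.95 against 6.78. *Snap25*, a synaptic protein on the list of neuron markers, was at 1.4 (1.03 to 1.91) at 48 h and 0.607 (0.436 to 0.837) at 72 h. The difference between the times was not tested in any of them, and with 1 library at each time time and library cannot be told apart.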

How the results depend on the processing

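The number of genes followed the thresholds. It was 37 as reported, 34 with the same thresholds on scaled counts (31 shared), 10 with at most 5 and 4 with at most 3 counts untreated, 6 with at least 40 and 79 with at least 15 counts with butyrate, and 12 with the treatments exchanged. Chosen after seeing the data, the rule gave 311 genes at 48 h alone and 128 at 72 h alone. The genes lost on scaled counts were *Ccdc40*, *Fbxo16*, *Fut10*, *Kcnn1*, *Kif7* and *Nat8l*, and *Gm14760*, *Sp9* and *Tmem59l* were gained. The median log2 difference stayed between 2.28 and 2.92 at 48 h and between 1.99 and 2.58 at 72 h under the other scalings and the pseudocount of 5. Of 296 recomputed values for single members 0 changed direction and 3 moved beyond their counting interval, all with the pseudocount of 5. The median CpG ratio was 0.498 with the start furthest downstream, an alternative added after seeing the data, which left TGACTCA in 1 window (3.70%) and GGGCGG in 16 (59.3%).

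The flanking genes that were at least 2-fold higher at both times numbered 6, and 4 among those over 10 counts in both untreated libraries, a setting also added after the values were seen. A fit with treatment and time was not run, because the members were selected on the treatment contrast. Untreated and butyrate libraries were compared within each time throughout. Depth limits the untreated side most, since counts of 0 to 10 leave ratios uncertain by several fold, and the deepest library was that with butyrate at 48 h.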
